A study of Mus musculus with 8 samples.

Results

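The genes described here encode the 4 mouse Notch receptors (Notch1, Notch2, Notch3 and Notch4), 4 of their ligands (Dll1, Dll4, Jag1 and Jag2) and a pair of their target genes (Hes1 and Hey1). They were taken by symbol from the Ensembl mouse identifiers of the per-mouse count tables, and they make up 10 of the 55416 genes listed there. A minimum on low counts left 18560 genes to test, and all 10 Notch genes were among them.

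RNA was sequenced from the lungs of female C57BL/6J mice aged 6 to 8 weeks, in a study of lipopolysaccharide (LPS), a bacterial cell wall component that provokes acute inflammation, and of YW3-56, a PAD inhibitor. The 3 control mice (mice 1, 2 and 4) were given the solvent DMSO by tail vein and saline into the abdomen. The 3 LPS mice (mice 1, 6 and 7) were given LPS at 35 mg/kg into the abdomen, with no DMSO injection stated for them, so LPS against control also differs in the solvent, and in dual treatment against LPS the compound and its solvent cannot be told apart. In the dual-treatment group, 2 mice (mice 2 and 5) received YW3-56 at 10 mg/kg in DMSO 30 min before the same dose of LPS, and lungs of every group were taken at 24 h. Mouse numbers run within a group, so that control mouse 1 and LPS mouse 1 are different animals. No group received YW3-56 without LPS, so the effect of the compound on an uninflamed lung was not measured.

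The control libraries held 19061949, 19796242 and 20527836 counted reads, the LPS libraries 20818501, 19379911 and 19279724, and the dual-treatment libraries 19875939 and 20908608. Levels are given as CPM, read counts brought to a common library total, after TMM scaling, which assumes that most genes do not differ. A gene was called different when its edgeR quasi-likelihood p-value, adjusted by Benjamini-Hochberg over all 18560 tested genes, was under 0.05. Errors of log2 fold changes are standard errors (SE), and intervals are 95% confidence intervals. All 3 comparisons draw on the same 8 libraries, so each pair of them shares a group.

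Genes that define lung tissue were abundant in every library. Summed over 5 alveolar type 2 markers, of which the surfactant gene Sftpc was the most abundant, the level ran from 14095 to 36806 CPM, and the club cell gene Scgb1a1 and the alveolar type 1 gene Ager led their own lists. A pair of LPS libraries also carried genes of other tissues. Squamous epithelial genes (9 of 10 listed were in the tables), led by Krt13, summed to 777 CPM in LPS mouse 6 and 2115 CPM in LPS mouse 7, against 1.54 CPM in LPS mouse 1 and 8.81 CPM or less in the control and dual-treatment mice. Skeletal muscle genes, led by Acta1, summed to 509 and 1282 CPM in LPS mice 6 and 7 and to no more than 95.3 CPM elsewhere. No gene of either list was at 0 in LPS mice 6 and 7, although Ivl of the squamous list was called lower under LPS at -4.01, and their part in the Notch genes' values was not tested beyond leaving these mice out. The fold changes and counts of the Notch genes are therefore also given with LPS mouse 1 as the only LPS mouse, whose spread was then assumed to be that of the other groups.

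Notch receptors sit in the cell membrane and are bound by ligands on neighbouring cells, after which ADAM10 and the gamma-secretase complex cut the receptor and free its intracellular part. That fragment enters the nucleus, joins the DNA-binding protein RBPJ and Mastermind-like coactivators, and turns on genes of the Hes and Hey families, which encode transcriptional repressors. In vessels, NOTCH4 and the ligand DLL4 are known from endothelial cells and NOTCH3 from smooth muscle cells and pericytes, and the pathway guides sprouting and arterial identity. RNA levels do not measure receptor cleavage, and in whole lung fewer cells of a type and less RNA per cell cannot be told apart.

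Comparing LPS with control mice asks how the inflamed lung differed in these genes. Of the 10 Notch genes, 3 were called higher (Notch2, Dll1 and Jag1), 6 lower (Notch3, Notch4, Dll4, Jag2, Hes1 and Hey1) and 1, Notch1, was not called. Across all tested genes, 32.6% were called higher and 33.9% lower, so calls as such were common. The median log2 fold change was -1.51 for the Notch genes and -0.01 for all tested genes. With LPS mouse 1 as the only LPS mouse, again 3 were called higher and 6 lower.

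Set against LPS alone, the dual-treatment mice show what differed when YW3-56 in DMSO preceded LPS. Here 5 Notch genes were called higher (Notch3, Notch4, Dll4, Jag2 and Hes1) and 4 lower (Notch1, Notch2, Dll1 and Jag1), beside 31.7% and 27.4% of all tested genes, and Hey1 was not called. The median was 0.44 for the Notch genes and 0.06 for all tested genes. With LPS mouse 1 as the only LPS mouse, 4 were called higher and 4 lower, because Hes1 lost its call.

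The remaining comparison, dual-treatment against control mice, asks how far the treated, inflamed lung stood from the uninflamed one. By edgeR, 0 Notch genes were called higher and 5 lower (Notch1, Notch3, Dll4, Hes1 and Hey1), beside 9.13% and 7.02% of all tested genes, and DESeq2 also called 0 higher. At an unadjusted p under 0.05, 1 Notch gene (Dll1) was higher and 7 were lower, the 5 called ones with Notch4 and Jag1, where 5658 of all 18560 tested genes were at such a p in either direction. The median log2 fold change was -0.47 for the Notch genes and 0.00 for all tested genes. Over all tested genes, 1695 were called higher and 1302 lower, and these counts were 790 and 430 without dual-treatment mouse 2, 1088 and 700 without control mouse 1, 973 and 580 without control mouse 2, and 977 and 733 without control mouse 4. The Notch genes called lower were 4 without control mouse 2, control mouse 4 or dual-treatment mouse 2.

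Markers of other cell types were read in the same comparisons, to be held against the shares of all tested genes called higher and lower, which were 32.6% and 33.9% for LPS against control, 9.13% and 7.02% for dual treatment against control, and 31.7% and 27.4% for dual treatment against LPS. All 7 neutrophil genes, led by S100a9, were called higher under LPS, 6 were higher in dual-treatment than in control mice, and dual treatment against LPS had 3 higher and 1 lower. Their sum was 226, 125 and 130 CPM in control mice, 1893 to 3007 CPM in LPS mice, and 1732 and 2410 CPM in dual-treatment mice. Both groups given LPS thus stood far above the controls. Of 8 macrophage and monocyte genes, led by Lyz2, 1 was called higher and 2 lower under LPS, 5 higher in dual-treatment than in control mice and 6 higher than in LPS mice. Their sum was 6330, 5814 and 7741 CPM in control mice, 5817, 4801 and 3431 CPM in LPS mice, and 6511 and 8912 CPM in dual-treatment mice. Most of this sum was Lyz2, which was not called under LPS (-0.52, adjusted p = 0.0634 by edgeR). Of the 5 alveolar type 2 genes, 4 were called lower under LPS, with sums of 29229 to 36806 CPM in control, 14095 to 25387 CPM in LPS and 17132 and 28126 CPM in dual-treatment mice, both below every control.

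Airway epithelial lists differed as well. Of 4 club cell genes, 2 were called higher and 1 lower under LPS, and 2 were lower in dual-treatment than in LPS mice. Their sum ran from 33732 to 42683 CPM in control mice and from 58626 to 70373 CPM in LPS mice. It was 26907.5 and 30259.5 CPM in dual-treatment mice, the order of groups seen for Jag1. By group mean, Scgb1a1, which made up most of the sum, and Scgb3a2 had this order. Cyp2f2 and Cbr2 did not, and were lowest in LPS mice at 666 and 3166 CPM. Of 5 ciliated cell genes, led by Tppp3, 4 were called higher and 1 lower under LPS, and 3 were lower in dual-treatment than in LPS mice, though their sums of 458, 550 and 573 CPM in control, 505, 482 and 616 CPM in LPS and 393 and 465 CPM in dual-treatment mice overlapped. Of 5 alveolar type 1 genes, 1 was called higher and 2 lower under LPS, with Rtkn2 at -5.83, and dual treatment against LPS had 2 higher and 2 lower. Their sum was 4295, 3988 and 4101 CPM in control mice, 3640, 3047 and 2107 CPM in LPS mice, and 2146 and 2830 CPM in dual-treatment mice. All 5 erythroid genes, led by Hbb-bs, were called lower in dual-treatment mice than in either other group, with sums of 1734, 3908 and 2785 CPM in control mice, 3284, 1884 and 1468 CPM in LPS mice, and 426 and 381 CPM in dual-treatment mice. Of 5 heart genes, led by Myh6, 4 were called lower in dual-treatment than in control mice and 3 lower than in LPS mice, at sums of 285, 860 and 484 CPM in control mice, 377, 578 and 332 CPM in LPS mice, and 166 and 171 CPM in dual-treatment mice. Of 7 T and B lymphocyte genes, led by Cd79a, 3 were called lower under LPS, and dual treatment against LPS had 2 higher and 1 lower. Together they came to 32.9, 36.1 and 32.9 CPM in control and 19.6, 19.9 and 12.0 CPM in LPS mice. In dual-treatment mice 2 and 5 they came to 52.6 and 19.7 CPM. None of the genes of these lists was at 0 in any library. Of 4 basal cell genes, led by Krt14, 1 was called higher under LPS and 2 were lower in dual-treatment than in LPS mice. Their sum was 0.949 CPM in LPS mouse 1, 41.4 and 59.0 CPM in LPS mice 6 and 7, and 9.93 to 21.3 CPM elsewhere. Rtkn2, Scgb3a2, Cyp2f2 and Cbr2 are named after their values were seen. The part of these cell types in the Notch genes' values was not tested.

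**Figure D1:**
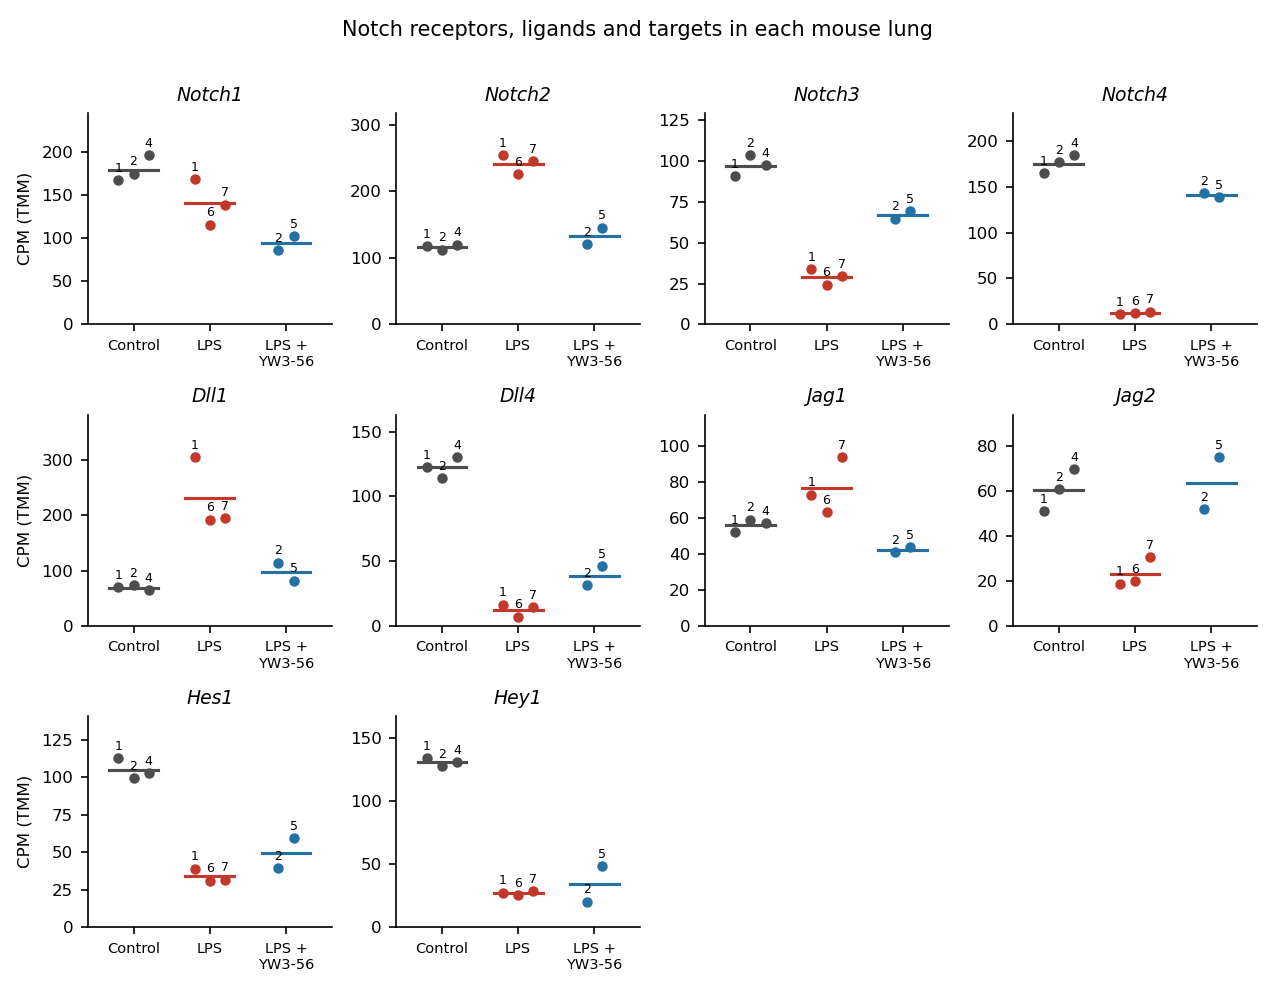
Level of each of the 10 Notch genes in each mouse, in CPM after TMM scaling, with the group on the horizontal axis, dots labelled by mouse number and a line at the group mean. Notch4 stands at 164 to 184 CPM in control mice, 11.0 to 13.9 CPM in LPS mice and 139 to 143 CPM in dual-treatment mice.

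Among the receptors, Notch4 moved the furthest. Notch4 stood at 164, 177 and 184 CPM in the control mice, 11.0, 12.5 and 13.9 CPM in the LPS mice, and 143 and 139 CPM in the dual-treatment mice. Every LPS mouse lay far below every other mouse, and both dual-treatment mice lay just under the lowest control. The LPS group was 14.0-fold lower than control, with a log2 fold change of -3.81 (SE 0.115, adjusted p = 8.37e-08). Against LPS, the dual-treatment group was higher by 3.49 (SE 0.119, adjusted p = 3.24e-07). Against control its value of -0.32 was not called (adjusted p = 0.0882, interval -0.57 to -0.06), although DESeq2 called it at an adjusted p of 0.0394. Over 15 alternative fits that adjusted p ran from 0.0394 to 0.217. LPS mouse 1 alone gave -3.99 against control and 3.67 for the dual-treatment group against it.

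Notch3, the receptor of vascular smooth muscle and pericytes, had the same order of groups over a smaller range. Its level was 90.9, 104 and 97.5 CPM in control mice, 33.8, 24.4 and 29.4 CPM in LPS mice, and 64.8 and 69.2 CPM in dual-treatment mice. The groups formed 3 separate bands, with the dual-treatment mice between the others. Notch3 fell by 1.74 on the log2 scale under LPS (SE 0.123, adjusted p = 3.02e-06). It was higher in dual-treatment than in LPS mice by 1.20 (SE 0.133, adjusted p = 6.87e-05) and lower than in control mice, at -0.54 (SE 0.134, adjusted p = 0.0251). That last call was lost without control mouse 2 (-0.49, adjusted p = 0.0903), without control mouse 4 (-0.56, adjusted p = 0.0514) and without dual-treatment mouse 2 (-0.52, adjusted p = 0.102), in a range of 0.00256 to 0.102 over 15 fits. LPS mouse 1 alone gave -1.52 against control and 0.98 for the dual-treatment group against it.

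Notch2, a widely expressed receptor, was the receptor that rose. Notch2 read 117, 112 and 120 CPM in control mice, 254, 226 and 245 CPM in LPS mice, and 120 and 145 CPM in dual-treatment mice. All LPS mice stood above all other mice, while the dual-treatment mice began at the upper end of the controls. Its log2 fold change was 1.05 under LPS (SE 0.103, adjusted p = 1.77e-05) and -0.86 in the dual-treatment group against LPS (SE 0.117, adjusted p = 0.000213). Between the dual-treatment and control groups the difference of 0.19 was not called (adjusted p = 0.296, interval -0.06 to 0.45). With LPS mouse 1 as the only LPS mouse, Notch2 stood at 1.13 from control and the dual-treatment group at -0.94 from LPS.

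Notch1, the receptor with the broadest known roles in vessels and lymphocytes, followed another order. It was measured at 168, 175 and 197 CPM in control mice, 169, 116 and 139 CPM in LPS mice, and 86.2 and 103 CPM in dual-treatment mice. LPS mouse 1 lay among the controls, LPS mice 6 and 7 lay below them, and both dual-treatment mice were the lowest of all 8. The LPS difference of -0.35 was not called (SE 0.144, adjusted p = 0.0544). It was called without LPS mouse 1 (-0.49, adjusted p = 0.00948), without dual-treatment mouse 2 (adjusted p = 0.0362) and without dual-treatment mouse 5 (adjusted p = 0.0353). It was also called with no minimum on counts (adjusted p = 0.0180), with a minimum of 10 counts in every library (adjusted p = 0.0366) and with only the compared groups fitted (adjusted p = 0.0324), and it shrank to -0.09 (adjusted p = 0.638) with LPS mouse 1 as the only LPS mouse. All 15 alternative fits gave adjusted p-values from 0.00127 to 0.638. Notch1 was the receptor with the largest difference between dual-treatment and control mice, at -0.93 (SE 0.165, adjusted p = 0.00576). Against LPS it was lower by a log2 fold change of -0.58 (SE 0.164, adjusted p = 0.0128), a call lost without dual-treatment mouse 2 (-0.48, adjusted p = 0.0616) and with library size as the only scaling (-0.25, adjusted p = 0.156), the upper end of a range that began at 0.000764. From LPS mouse 1 alone it differed by -0.84.

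Of the ligands, Dll4, which endothelial tip cells present to their neighbours, fell the most. Dll4 was at 123, 114 and 131 CPM in control mice, 16.4, 7.10 and 14.2 CPM in LPS mice, and 31.5 and 46.0 CPM in dual-treatment mice. The 3 groups did not overlap, and the dual-treatment mice were nearer to the LPS mice than to the controls in CPM. Under LPS Dll4 was 9.75-fold lower, a log2 fold change of -3.29 (SE 0.272, adjusted p = 6.78e-06). It was 1.63 higher in dual-treatment than in LPS mice (SE 0.282, adjusted p = 0.00093) and remained below control at -1.66 (SE 0.288, adjusted p = 0.00506). LPS mouse 1 alone was at -2.90 from control, and the dual-treatment value against it was 1.24.

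Jag2, another membrane ligand, also fell, and its dual-treatment level lay among the controls. Jag2 came to 51.0, 60.7 and 69.6 CPM in control mice, 18.7, 19.9 and 30.5 CPM in LPS mice, and 51.8 and 75.1 CPM in dual-treatment mice. LPS mice were below all others, and the control and dual-treatment mice overlapped. The log2 fold changes were -1.39 under LPS (SE 0.214, adjusted p = 0.000327) and 1.46 for dual treatment against LPS (SE 0.232, adjusted p = 0.000556). Its difference between dual-treatment and control mice, 0.07, was not called and had an interval of -0.45 to 0.59 (adjusted p = 0.877). For LPS mouse 1 alone the values were -1.68 from control and 1.75 for dual treatment against it.

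Dll1, a ligand known for setting cell fates in several tissues, rose. Dll1 counted 69.7, 73.4 and 64.5 CPM in control mice, 306, 192 and 195 CPM in LPS mice, and 114 and 81.8 CPM in dual-treatment mice. LPS mouse 1 was the highest of all, and the dual-treatment mice lay between the other groups with no overlap. It was higher in LPS than in control mice by 1.74 (SE 0.198, adjusted p = 4.48e-05), and by 2.15 in LPS mouse 1 alone. Dual treatment stood at -1.24 against LPS (SE 0.223, adjusted p = 0.00116), and at -1.65 against LPS mouse 1 alone. Against control, 0.50 was not called (adjusted p = 0.145, interval 0.02 to 0.98). That value was called without LPS mouse 1 (adjusted p = 0.0387), with no minimum on counts (adjusted p = 0.0399) and with only the compared groups fitted (adjusted p = 0.0417). It was 0.21 without dual-treatment mouse 2 and 0.69 without dual-treatment mouse 5, with adjusted p-values from 0.0387 to 0.676 over 15 fits.

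Jag1, a ligand of vascular and airway cells whose loss is known for bile duct and vessel defects, had the smallest called change under LPS. It gave 52.3, 59.1 and 57.0 CPM in control mice, 73.0, 63.1 and 94.1 CPM in LPS mice, and 41.2 and 43.6 CPM in dual-treatment mice. The 3 groups were separate, with the dual-treatment mice the lowest and LPS mouse 7 the highest. The LPS log2 fold change of 0.45 (SE 0.138, adjusted p = 0.0158) lost its call without control mouse 1 (0.40, adjusted p = 0.0606) and with library size as the only scaling (0.17, adjusted p = 0.357), and without LPS mouse 7 it was 0.29 (adjusted p = 0.0333), in a range that began at 0.00355. Dual treatment stood at -0.86 against LPS (SE 0.158, adjusted p = 0.00134). Its -0.41 against control was not called (adjusted p = 0.11, interval -0.76 to -0.05), but was called without LPS mouse 7 (adjusted p = 0.0281), with only the compared groups fitted (adjusted p = 0.0232) and with LPS mouse 1 as the only LPS mouse (adjusted p = 0.0228), in a range of 0.0228 to 0.321. With that mouse alone, Jag1 was 0.39 from control under LPS and -0.79 for dual treatment against LPS.

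Hes1 and Hey1, the target genes, encode repressors of the basic helix-loop-helix family. Hes1 was found at 113, 99.4 and 103 CPM in control mice, 39.1, 31.0 and 31.8 CPM in LPS mice, and 39.5 and 59.2 CPM in dual-treatment mice. All 5 mice given LPS lay below all controls, and dual-treatment mouse 2 was level with LPS mouse 1. Hes1 fell by 1.63 on the log2 scale under LPS (SE 0.156, adjusted p = 1.60e-05) and was lower in dual-treatment than in control mice, at -1.09 (SE 0.175, adjusted p = 0.00339). The dual-treatment group was called higher than LPS by 0.54 (SE 0.170, adjusted p = 0.0213). Single mice decided this call, which was lost without dual-treatment mouse 5 (0.20, adjusted p = 0.289), without LPS mouse 6 (0.47, adjusted p = 0.0644), without LPS mouse 7 (0.48, adjusted p = 0.0557), with only the compared groups fitted (adjusted p = 0.0537) and with LPS mouse 1 as the only LPS mouse (0.33, adjusted p = 0.260), in a range of 0.000888 to 0.289. LPS mouse 1 alone stood at -1.42 from control.

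Hey1, a target with known roles in endothelial cells, stood at 134, 128 and 131 CPM in control mice, 27.5, 25.4 and 28.4 CPM in LPS mice, and 20.4 and 48.3 CPM in dual-treatment mice. Controls were tightly grouped and far above the rest, whereas the dual-treatment mice fell on either side of the LPS mice. The log2 fold change was -2.27 under LPS (SE 0.252, adjusted p = 3.90e-05) and -1.93 in the dual-treatment group against control (SE 0.287, adjusted p = 0.00232). Over 15 alternative fits, the dual-treatment value against control ran from -2.71 to -1.47. Dual treatment against LPS gave 0.34, which was not called (SE 0.273, adjusted p = 0.302). Without dual-treatment mouse 2 it was called higher at 0.81 (adjusted p = 0.000415), and without dual-treatment mouse 5 it was called lower at -0.43 (adjusted p = 0.0178), so the mice of that group placed Hey1 on opposite sides. Adjusted p-values over the 15 fits ran from 0.000415 to 0.555. LPS mouse 1 alone gave -2.24 from control and 0.31 for dual treatment against it. Whether Hes1 and Hey1 differed from Notch3, Notch4, Dll4 and Jag2 in how far they moved between LPS and dual treatment was not tested.

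**Figure D2:**
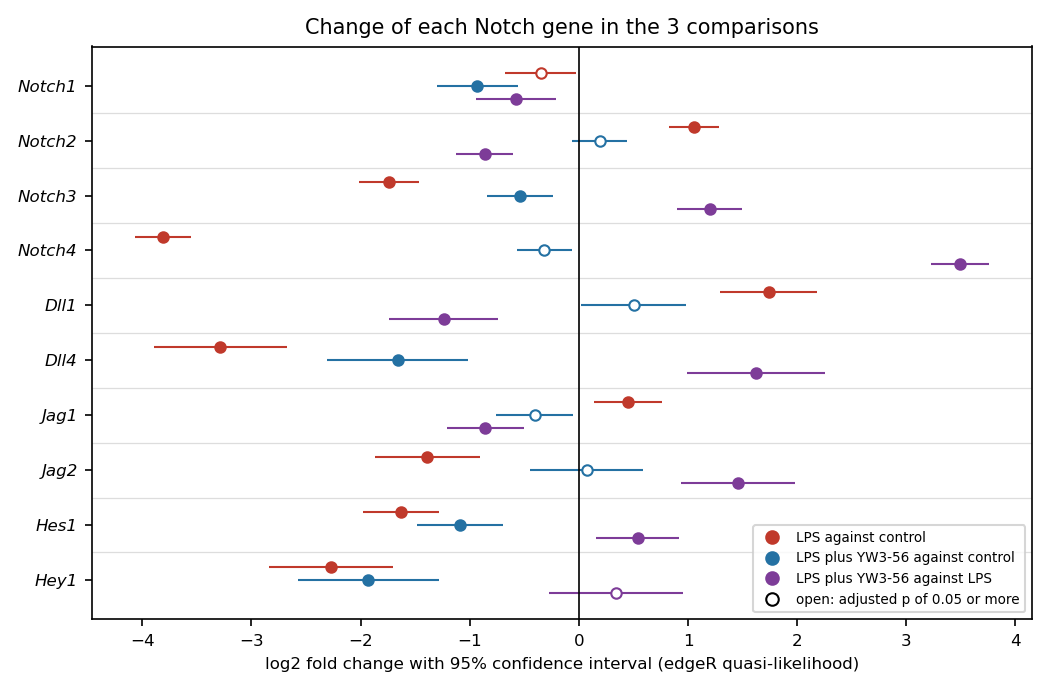
Log2 fold change of each Notch gene in the 3 comparisons, with 95% confidence intervals and open symbols where the adjusted p was not under 0.05. Notch4 reaches -3.81 for LPS against control and 3.49 for dual treatment against LPS, and Hey1 lies at -1.93 for dual treatment against control.

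With library size as the only scaling, the median log2 fold change of all tested genes was -0.29 for LPS against control and 0.38 for dual treatment against LPS. Under this scaling, every called Notch gene in both comparisons kept its sign, although Jag1 under LPS and Notch1 under dual treatment lost their calls. Library size alone also raised the number of Notch genes called lower under LPS from 6 to 7, through Notch1 (-0.64, adjusted p = 0.00127), beside 2 called higher. The study called a gene at a fold over 2 with a p-value under 0.05, applied here with the unadjusted p of edgeR. Of the called Notch genes, Jag1 for LPS against control and Notch1 and Notch3 for dual treatment against control were not past this threshold. Neither were Notch1, Notch2, Jag1 and Hes1 for dual treatment against LPS.

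Levels of different genes were set side by side after division by length, taken as the union of annotated exons. The transcripts present in the lung may be shorter, so the orders per kb depend on this choice of length. In control lungs the receptors stood, in CPM per kb of exon, at 19.8 ± 1.12 (SD, n = 3) for Notch4, 12.6 ± 1.04 for Notch1, 10.8 ± 0.703 for Notch3 and 10.3 ± 0.330 for Notch2. Notch4 was therefore the most abundant receptor per length, although without this division Notch1 averaged 180 CPM and Notch4 175 CPM in control lungs. Notch3 and Notch2 per kb did not differ beyond their spread, with Notch3 the higher of them in control mice 2 and 4 only. In LPS lungs the order per kb was Notch2 at 21.4 ± 1.28, Notch1 at 9.92 ± 1.86, Notch3 at 3.24 ± 0.521 and Notch4 at 1.41 ± 0.165, each apart from the next. Dual-treatment lungs had Notch4 at 15.9 ± 0.340 (SD, n = 2), Notch2 at 11.8 ± 1.55, Notch3 at 7.44 ± 0.344 and Notch1 at 6.64 ± 0.823 per kb. Notch3 was above Notch1 per kb in both mice by less than the sum of their spreads. Undivided, Notch1 averaged 94.5 CPM and Notch3 67.0 CPM in these lungs. As a share of the 4 receptors per length, Notch4 made up 36.9% in control, 3.95% in LPS and 38.1% in dual-treatment lungs. Notch2 took the leading place under LPS, with shares of 19.3%, 59.7% and 28.2% across the groups in that order. In LPS mouse 1 by itself the shares were 57.2% for Notch2 and 3.15% for Notch4.

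The ligands changed their order as well. Control lungs held Dll4 at 31.1 ± 2.07 CPM per kb (SD, n = 3), then Dll1 at 13.9 ± 0.901, Jag1 at 9.42 ± 0.590 and Jag2 at 8.52 ± 1.31, the last pair within their spread. In LPS lungs Dll1 led at 46.6 ± 13.1 CPM per kb, ahead of Jag1 at 12.9 ± 2.65, while Jag2 at 3.25 ± 0.915 and Dll4 at 3.18 ± 1.23 were level. Dual-treatment lungs had Dll1 at 19.8 ± 4.62 (SD, n = 2), Dll4 at 9.82 ± 2.59, Jag2 at 8.95 ± 2.32 and Jag1 at 7.11 ± 0.289 CPM per kb, with the last 3 in that order in both mice although their spreads overlapped. Dll4 accounted for 49.3% of the 4 ligands per length in control, 4.73% in LPS and 21.5% in dual-treatment lungs, and Dll1 for 22.2%, 70.2% and 43.4%. LPS mouse 1 by itself had 5.14% for Dll4 and 76.4% for Dll1. The leading receptor and ligand per length were thus Notch4 and Dll4 in control lungs, Notch2 and Dll1 in LPS lungs, and Notch4 and Dll1 in dual-treatment lungs. Of the targets, Hes1 stood at 31.1 ± 2.04 and Hey1 at 27.3 ± 0.676 CPM per kb in control lungs, at 10.1 ± 1.32 and 5.65 ± 0.317 in LPS lungs, and at 14.6 ± 4.13 and 7.16 ± 4.12 in dual-treatment lungs, and Hes1 was above Hey1 in each of the 8 mice.

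Ratios of levels within each library do not depend on its scaling. They were taken from levels not divided by length, so their signs do not give the order per kb. The log2 ratio of Jag2 to Jag1 was -0.04, 0.04 and 0.29 in control mice, -1.96, -1.66 and -1.62 in LPS mice, and 0.33 and 0.78 in dual-treatment mice. LPS mice formed a group of their own for this ligand pair. The LPS mean was -1.84 from control (p = 0.1, two-sided exact permutation test) and the dual-treatment mean 2.30 from LPS (p = 0.1, exact permutation), where 0.1 is the smallest p these group sizes allow. For Notch1 over Notch2, the log2 ratio was 0.52, 0.64 and 0.72 in control mice, -0.59, -0.96 and -0.82 in LPS mice, and -0.48 and -0.50 in dual-treatment mice. Here both groups given LPS lay below the controls and near each other, at -1.42 and -1.12 from control (p = 0.1 for each, exact permutation). The log2 ratio of Dll4 to Notch4 was -0.42, -0.63 and -0.49 in control mice, 0.57, -0.81 and 0.03 in LPS mice, and -2.18 and -1.59 in dual-treatment mice. In dual-treatment mice, therefore, Dll4 was low against Notch4, by -1.37 from control (p = 0.1, exact permutation) and by -1.81 from LPS (p = 0.2, exact permutation). For Hey1 over Hes1, the log2 ratio was 0.25, 0.36 and 0.35 in control mice, -0.50, -0.29 and -0.17 in LPS mice, and -0.95 and -0.29 in dual-treatment mice. Hey1 was thus lower relative to Hes1 in all 5 mice given LPS. Over the 12 ratio tests the lowest adjusted p was 0.171.

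Other genes of the pathway were read from a list of 59, of which 54 were tested. Under LPS 15 were called higher (27.8%) and 20 lower (37.0%), near the 32.6% and 33.9% of all tested genes, with a median of 0.01. In dual-treatment mice against LPS 20 were called higher (37.0%) and 19 lower (35.2%), beside 31.7% and 27.4% of all tested genes, with a median of 0.02. With LPS mouse 1 as the only LPS mouse these counts were 15 and 20, and 17 and 17. For dual treatment against control, beside 9.13% and 7.02% of all tested genes, 3 were called higher (Aph1a, Ncstn and Ccnd1) and 7 lower (Mib1, Mib2, Maml2, Kat2b, Tle1, Nrarp and Efnb2), with a median of -0.03. The 7 became 4, 3 and 4 without control mice 1, 2 and 4 and 3 without dual-treatment mouse 2, while the 3 became 1 without control mouse 4 or dual-treatment mouse 2 and 5 without LPS mouse 7. With library size as the only scaling the split was 10 higher and 29 lower under LPS, and 27 higher and 8 lower for dual treatment against LPS. All tested genes shifted the same way, to 4336 higher and 7832 lower under LPS and to 7889 higher and 3225 lower for dual treatment against LPS, of 18560. Efnb2 and Ccnd1 are named here after their values were seen.

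Most glycosyltransferases that build sugars on Notch receptors fell under LPS. Of 5 tested, 4 (Pofut1, Lfng, Mfng and Rfng) were called lower, beside 33.9% of all tested genes, and the same 4 were called higher in dual-treatment than in LPS mice, beside 31.7%. Poglut1 was called in neither, with -0.12 under LPS (adjusted p = 0.355). Mfng, a fringe enzyme that alters which ligand a receptor answers, was at 41.8, 43.5 and 46.7 CPM in control mice, 8.96, 15.1 and 10.4 CPM in LPS mice, and 45.0 and 42.6 CPM in dual-treatment mice. The dual-treatment mice lay within the control range, and LPS mice far below it. The log2 fold change of Mfng was -1.94 under LPS and 1.93 for dual treatment against LPS. Pofut1, which adds the fucose that fringe enzymes extend, was at 32.5, 31.8 and 32.9 CPM, then 11.6, 14.2 and 15.2 CPM, then 39.8 and 46.2 CPM in the same order of groups. Its dual-treatment mice exceeded all controls, a difference of 0.41 that was not called.

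Ligand-side ubiquitin ligases, which let the sending cell pull on the receptor, did not move as a block. Mib2 was at 82.7, 97.1 and 103 CPM in control mice, 22.0, 22.2 and 23.4 CPM in LPS mice, and 55.2 and 69.7 CPM in dual-treatment mice. Its dual-treatment mice lay between the other groups, at 1.47 from LPS and -0.60 from control (adjusted p = 0.0152). Mib1, the better known ligase of ligand uptake, was at 112, 119 and 104 CPM in control mice, 109, 103 and 117 CPM in LPS mice, and 78.8 and 73.3 CPM in dual-treatment mice. Control and LPS mice overlapped for Mib1 and both dual-treatment mice were lower, at -0.56 from control (adjusted p = 0.00809). Neurl1b fell by 2.49 on the log2 scale under LPS, whereas Neurl1a was called higher at 0.88.

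Among genes of receptor cleavage, Furin, the protease that cuts Notch on its way to the surface, was at 159, 145 and 161 CPM in control mice, 411, 338 and 337 CPM in LPS mice, and 178 and 162 CPM in dual-treatment mice. The LPS mice stood far above the rest, by 1.23 on the log2 scale from control. Adam10, which makes the ligand-induced cut, fell by 0.60 on the log2 scale under LPS and was 0.61 higher in dual-treatment than in LPS mice. Ncstn, a gamma-secretase subunit, was higher than control in both groups given LPS. Its values were 0.77 under LPS (adjusted p = 8.58e-05) and 0.49 under dual treatment (adjusted p = 0.0142).

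In the nucleus, the DNA-binding partner Rbpj differed little next to its coactivator Maml1. Rbpj was at 52.6, 50.4 and 55.3 CPM in control mice, 70.1, 67.0 and 71.0 CPM in LPS mice, and 57.3 and 50.5 CPM in dual-treatment mice. Its LPS mice stood above the others by a log2 fold change of 0.39 from control. Maml1 was at 39.6, 39.3 and 43.7 CPM, then 124, 96.1 and 109 CPM, then 44.2 and 36.0 CPM in the same order, and its changes were 1.42 under LPS and -1.45 for dual treatment against LPS. The corepressor Tle3 likewise rose, from 78.9, 75.9 and 81.9 CPM in control mice to 173, 147 and 154 CPM in LPS mice, and was -1.13 from LPS under dual treatment. Rbpj is named here after its values were seen.

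Numb, an inhibitor that sends Notch to degradation, and its relative Numbl went opposite ways. Numb was at 121, 127 and 127 CPM in control mice, 50.4, 48.6 and 49.6 CPM in LPS mice, and 107 and 133 CPM in dual-treatment mice. Numbl was at 31.6, 32.9 and 35.5 CPM, then 66.9, 64.4 and 78.2 CPM, then 33.8 and 30.7 CPM. For both genes the LPS mice stood alone, with log2 fold changes of -1.33 for Numb and 1.07 for Numbl. Dtx3l, a ubiquitin ligase of the Deltex family, rose by 2.37 under LPS.

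Further targets moved in both directions, with 1 called higher (Myc) and 6 lower of 10 tested under LPS, beside 32.6% and 33.9% of all tested genes. Dual treatment against LPS had 5 of them called higher and 2 lower, beside 31.7% and 27.4% of all tested genes. Nrarp, a feedback inhibitor that Notch itself induces, was at 11.7, 11.5 and 12.8 CPM in control mice, 3.14, 2.43 and 2.96 CPM in LPS mice, and 5.13 and 5.05 CPM in dual-treatment mice. The dual-treatment mice were closer to LPS mice than to controls, with a log2 fold change of -1.24 from control (adjusted p = 0.00282) and 0.84 from LPS, after -2.08 under LPS. Hes2 had 179, 206 and 191 counts in control mice, 0, 0 and 2 in LPS mice, and 22 and 108 in dual-treatment mice. Its LPS libraries were nearly empty. The level was 236 times higher in control than in LPS mice (95% exact interval 65.1 to 1956, counting error only). It was 75.5 times higher in dual-treatment than in LPS mice (20.5 to 630.4). That ratio pools 0.998 CPM in dual-treatment mouse 2 with 4.74 CPM in mouse 5, and the only LPS reads came from LPS mouse 7. Myc, a growth regulator with many inputs besides Notch, was at 13.4, 11.5 and 12.4 CPM in control mice, 109, 54.2 and 62.1 CPM in LPS mice, and 24.9 and 13.8 CPM in dual-treatment mice. By group mean, Gata2 stood at 200 CPM in control, 54.6 CPM in LPS and 163 CPM in dual-treatment mice. Heyl, named here after its values were seen, stood at 52.3, 17.1 and 38.5 CPM in the same order. Hes5 had 0 counts in every library, and Dll3, Dlk1, Dner and Hes3 were too low to test.

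Endothelial cells are known to carry Notch4 and Dll4, and their markers were read beside these genes. Summed over 8 endothelial genes, of which Cdh5 was the most abundant and none was at 0 in any library, the level was 2973, 3268 and 3379 CPM in control mice, 2022, 1677 and 1619 CPM in LPS mice, and 2999 and 3132 CPM in dual-treatment mice. LPS mice were the lowest in this sum. The individual markers given next were named after their values were seen. The list split within itself, with 6 genes called lower under LPS and 2 not called, and the same 6 called higher in dual-treatment than in LPS mice, beside 33.9% and 31.7% of all tested genes. Cdh5, which encodes VE-cadherin of endothelial junctions, was at 590, 659 and 737 CPM in control mice, 938, 657 and 642 CPM in LPS mice, and 510 and 590 CPM in dual-treatment mice. Control mice overlapped with both other groups, and the LPS difference of 0.17 was not called (adjusted p = 0.382). Cldn5, another junction gene, was also not called, at -0.02 (adjusted p = 0.873). In contrast, the endothelial transcription factor Erg went from 154, 148 and 144 CPM in control mice to 11.1, 16.5 and 8.60 CPM in LPS mice and stood at 88.9 and 105 CPM in dual-treatment mice. By group mean, Erg had the order seen for Notch4 and Dll4, with control above dual treatment and LPS the lowest, and so did Tek, Tie1, Kdr and Emcn, whereas Cdh5, Cldn5 and Pecam1 did not. Pecam1, another junction gene, was at 618, 679 and 672 CPM in control mice, 254, 218 and 213 CPM in LPS mice, and 1073 and 912 CPM in dual-treatment mice. Its dual-treatment mice were above all controls, at 0.60 (adjusted p = 0.0143), which adds to the dual-treatment sum, whereas Kdr was below control at -0.90 (adjusted p = 0.00252). For Erg the log2 fold change under LPS was -3.62, beside -3.28 for Tek, -2.97 for Tie1, -2.60 for Kdr, -1.52 for Pecam1 and -0.75 for Emcn. The part of endothelial cell number in the values of Notch4 and Dll4 was not tested.

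**Figure D3:**
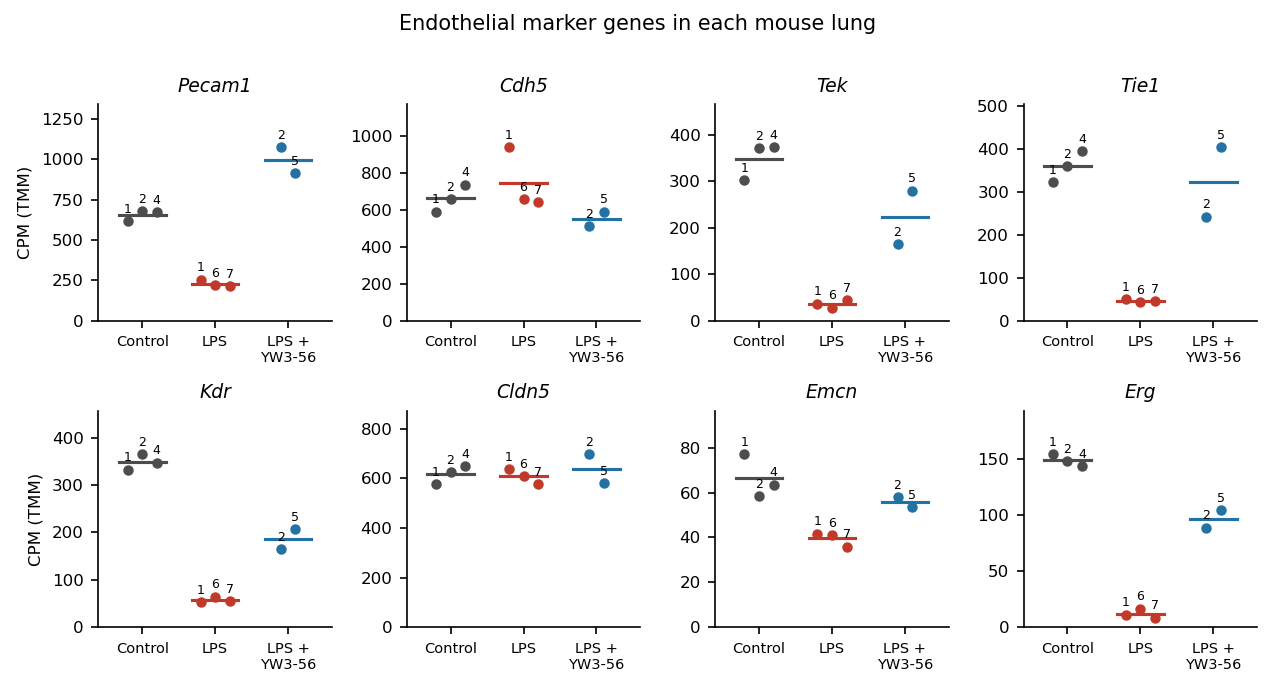
Level of 8 endothelial marker genes in each mouse, in CPM after TMM scaling, with the group on the horizontal axis, dots labelled by mouse number and a line at the group mean. Cdh5 reads 590 to 737 CPM in control and 642 to 938 CPM in LPS mice, while Erg reads 144 to 154 CPM in control and 8.60 to 16.5 CPM in LPS mice.

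For Notch3, smooth muscle and pericyte genes were summed. The 7 genes, led by Pdgfrb, came to 438, 543 and 466 CPM in control mice, 393, 468 and 552 CPM in LPS mice, and 360 and 375 CPM in dual-treatment mice. LPS mouse 1 lay below every control in this sum, LPS mouse 6 among them and LPS mouse 7 above them. Des, a gene of smooth and skeletal muscle alike, was at 77.7, 129 and 183 CPM in LPS mice 1, 6 and 7. Under LPS 1 gene was called higher, Acta2 of smooth muscle (0.63, adjusted p = 0.00291), 2 were called lower, Pdgfrb (-0.68) and the pericyte gene Cspg4 (-1.52), and 4 were not called, beside 32.6% higher and 33.9% lower of all tested genes. Dual treatment against LPS had 2 called higher, Pdgfrb (0.63) and Cspg4 (1.68), and 4 lower, Acta2, Myh11, Cnn1 and Tagln, beside 31.7% and 27.4% of all tested genes, all named after their values were seen. Dual treatment against control had 0 called higher and 1 lower, Cnn1 (-2.19), beside 9.13% and 7.02% of all tested genes. The median of the 7 genes there was -0.54. The part of these genes in the values of Notch3 was not tested.

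Across the 8 libraries, the genes whose levels were most alike were named by Pearson's r among 15579 genes, as a description. For Hey1 these were Gata3 (r = 0.999), Trp53bp2 (r = 0.995) and Sox11 (r = 0.993), n = 8 libraries. Notch1 had Myo10 (r = 0.984), Zxdb (r = 0.979) and Ltbp4 (r = 0.968), and 25 genes at r of 0.95 or more. Jag1 had 67 genes at that r, among them Meaf6, Usp9x and Crybg3, while Notch4, led by Sirt4, AU022252 and Fam136a, had 2018. At that r, few genes matched Notch1 and Jag1 and many matched Notch4, while the other Notch genes had from 178 (Hey1) to 1328 (Notch3). Such counts also depend on how far the groups differ beside the spread within them. No count for a typical gene was made.

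The promoter of Hes1 was read because this target gene answers to RBPJ, whose known core motif is TGGGAA, contained in the longer GTGGGAA. In the 250 bases before the start of each gene's canonical transcript, TGGGAA occurred on either strand in 22.7% of 21770 protein-coding promoters, and GTGGGAA in 5.475%. None of the 4 receptors and 4 ligands held either motif in this window, and among 58 other pathway genes read, 18 held TGGGAA and 9 held GTGGGAA. The promoter of Hey1 is not described here. Hes1 held TGGGAA at 2 places, as did 3.06% of promoters at 2 or more. Its sequence comes from the GRCm39 mouse genome with the GENCODE M39 annotation and runs 5′ to 3′ along the gene's own strand, with capitals at TGGGAA. Hes1 is shown for chr16:29883877-29884126 on the plus strand, inside the annotated gene because other Hes1 transcripts begin further upstream, with matches at 49 and 35 bases before the start, of which the former lies within GTGGGAA.
Hes1: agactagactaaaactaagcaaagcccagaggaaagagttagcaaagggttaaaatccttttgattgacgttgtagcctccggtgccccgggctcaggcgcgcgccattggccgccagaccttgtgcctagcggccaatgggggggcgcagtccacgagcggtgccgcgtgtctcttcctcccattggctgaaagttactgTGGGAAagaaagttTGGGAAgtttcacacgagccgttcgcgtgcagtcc
These matches describe letters in the sequence and do not show that RBPJ was bound there.

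In GRCm39 coordinates Notch1 lies at chr2:26347915-26406675 and Dll4 at chr2:119156170-119166443, with Jag1 on the same chromosome at chr2:136923373-136958693. Chromosome 17 holds Dll1 at chr17:15587276-15597134, Notch3 at chr17:32339794-32385893 and Notch4 at chr17:34783220-34807477. Notch2 is at chr3:97920800-98057677, Hey1 at chr3:8726956-8732385, Jag2 at chr12:112871421-112893437 and Hes1 at chr16:29882134-29886643. Each of the 10 overlaps another gene annotated in GENCODE M39, such as Fam120b opposite Dll1. Gm42820 at Notch2 and Mir6941 at Jag2 lie on the same strand as the Notch gene. The annotation release and strand setting of the counting were not stated, so how reads in the overlapping exons were assigned is not known.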

How the data were processed

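The authors deposited raw counts per gene for each mouse, made with FastQC 0.11.9, Trim Galore, HISAT2 2.2.1 and featureCounts 2.0.1 on GRCm39. Their annotation release, strand setting and treatment of multi-mapping reads are not given in the sources used here. The tables hold 0 other value columns. Of 55416 identifiers, 54749 matched GENCODE M39. Using R 4.3.3, genes were filtered with filterByExpr, scaled by TMM and fitted with edgeR 4.0.16 (quasi-likelihood). All 8 libraries were fitted together in 3 groups, giving 5 residual degrees of freedom. Depth ran from 19061949 to 20908608 counts. Transcript length is the union of exons. Ratios were compared by two-sided exact permutation tests. Alternatives were RLE scaling, library size only, DESeq2 1.42.0, other filters and fits of only the compared groups. The study's criterion, a fold over 2 with a p-value under 0.05, was applied with the unadjusted p of edgeR. Further alternatives were leaving out each mouse, and LPS mouse 1 as the only LPS mouse. The largest called changes within each role, with called members of short lists, picked out 29 of 59 other pathway genes. Not all of these are named in the text, and some outside them, such as Poglut1, are. Members and lists were chosen with earlier results of these data known. The procedure was tested on simulated data.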

Additional observations from a re-analysis of the deposited data

How the results depend on the processing

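No paired analysis was possible because the groups share fewer than 2 mouse numbers. Where a setting left 1 mouse in the LPS or dual-treatment group, it was assumed to vary like the other groups. Of the fold changes of the 10 Notch genes over 16 settings, 150 kept direction and call for LPS against control, 148 for dual treatment against control and 147 for dual treatment against LPS. Hey1 in dual treatment against LPS was -0.43 without dual-treatment mouse 5, the reverse of its 0.34, and 0.81 without dual-treatment mouse 2.

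By a fold over 2 with unadjusted p under 0.05, which asks for larger changes, LPS against control gave 7 other pathway genes higher, 12 lower and 7450 of all tested genes. Dual treatment against control then gave 3 Notch genes lower, 0 other pathway genes higher, 3 lower and 1944 of all genes, and dual treatment against LPS gave 1 Notch gene lower, 10 other pathway genes higher, 6 lower and 6554 of all genes. For dual treatment against control, 1 Notch gene, Dll1, was called higher with no filter or with only the compared groups fitted. There, 5 other pathway genes were called higher with 10 counts required in every library, with only the compared groups and with LPS mouse 1 as the only LPS mouse. Scaling by library size only left 8 other pathway genes lower in dual treatment against LPS, against 19 with TMM. The cause of these differences was not tested.

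Leaving out single mice moved dual treatment against control between 0 and 1 Notch gene higher, 4 and 6 lower, 1 and 5 other pathway genes higher, 3 and 8 lower, and 1220 and 3601 of all genes (2997 with all mice). The counts for LPS against control ran from 11004 to 12709 and for dual treatment against LPS from 8673 to 10626. With 2 dual-treatment mice, each one weighs heavily in that group's values.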
